A study of Mus musculus with 6 samples.

Results

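B lymphocytes are followed here in mouse dental pulp through 9 genes. *Vpreb1*, *Igll1*, *Vpreb3*, *Rag1* and *Dntt* serve the early steps in which precursors build their antigen receptor, and *Pax5*, *Ebf1*, *Cd79a* and *Cd79b* are carried on into mature B cells. The genes were taken by symbol from a table of 53342 Ensembl genes, in which each had 1 row, and they were chosen with earlier results of these data known. Pulp tissue was removed from the teeth of 3 WT and 3 *Mmp13*-/- mice, 6 samples in all, to ask what loss of the collagenase MMP13 does to gene expression in the pulp. Both groups were C57BL/6 mice aged 3 months and the study's methods describe males. The *Mmp13*-/- animals were homozygous for the deficiency, and the labels give no treatment for either group. The samples were independent biological samples, with the numbers 2, 4 and 5 in WT and 1, 2 and 6 in *Mmp13*-/-. Molars and a column kit stand in the sample labels, while incisors and TRIzol stand in the study's methods, and the sources used here do not settle which applies. In the sample titles molars are named for WT alone, and the *Mmp13*-/- titles name no tooth. Whether both genotypes gave the same type of tooth is not settled by the titles.

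In adult mice B cells arise in the bone marrow. The recombinase made of RAG1 and RAG2 cuts the DNA beside gene segments of the immunoglobulin heavy chain, which are then joined. Terminal transferase, encoded by *Dntt*, adds bases at the joints. A finished heavy chain is first brought to the surface with a stand-in for the light chain, made of VpreB and lambda 5 (encoded by *Igll1*), together with the signalling pair CD79A and CD79B. By the time a true light chain has been made the stand-in is lost, whereas CD79A and CD79B remain part of the B cell receptor for as long as the cell is a B cell. EBF1 and PAX5 are the transcription factors that set and hold this fate. Developing T cells in the thymus use *Rag1*, *Rag2* and *Dntt* as well, and *Ebf1* is also active in stromal, mural and fat cells.

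The libraries differed by genotype in more than these genes. Totals were 28442936 to 29980236 estimated counts in WT and 21561420 to 26547121 in *Mmp13*-/-, without overlap, and 3 counts, taken as the floor of detection, came to at most 0.139 CPM (counts scaled to the library total), a limit that covers counting error only. *Mmp13* itself had 827 to 1139 estimated counts in WT and 10.2 to 40.4 in *Mmp13*-/-, which is a log2 fold change of −4.96 (standard error, SE, 0.46, edgeR adjusted p = 7.68e-05). Genes matching the repeat-rich gene *Gm10800* (13 genes) took 0.0331% to 0.0445% of the counts in WT, 5.87% and 10.3% in *Mmp13*-/- samples 1 and 2, and 46.1% in *Mmp13*-/- sample 6. Genes for odorant and vomeronasal receptors (1451 genes), used below as a gauge of background reads, summed to 17.8 to 20.8 CPM in WT and to 308, 355 and 1196 CPM in *Mmp13*-/- samples 1, 2 and 6. Sample 6 therefore stood apart from the rest, and results are also given without it. Samples 1 and 2 also lay far above WT in both measures, so leaving out sample 6 does not remove this difference between the genotypes. No batch of extraction or sequencing was given in the sources used here, so a batch and the genotype cannot be told apart.

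Transcripts of 8 of the 9 genes were more abundant in *Mmp13*-/- pulp than in WT pulp, and those of *Ebf1* did not pass the test. Genes with an adjusted p under 0.05 in the quasi-likelihood test of edgeR, and with over 2-fold change, were called. All 9 genes had enough counts to be tested, 8 were called higher and 0 lower. Among all 24534 genes tested, 20.4% were called higher and 9.68% lower in *Mmp13*-/-, 30.1% together. Since the genes were chosen with results known, the share called is a description of them. At any fold the number stayed at 8 of 9, against 27.3% of all genes higher and 51.6% in either direction. For the same 8 genes every *Mmp13*-/- sample lay above every WT sample, a pattern found in 31.8% of all genes tested, and in 60.9% when either genotype may be the higher. The median log2 fold change was 1.93 over the 9 genes and 0.10 over all genes tested. In pieces of whole tissue, more cells of a type and more RNA per cell cannot be told apart. All 8 calls were also made without *Mmp13*-/- sample 6.

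**Figure D1:**
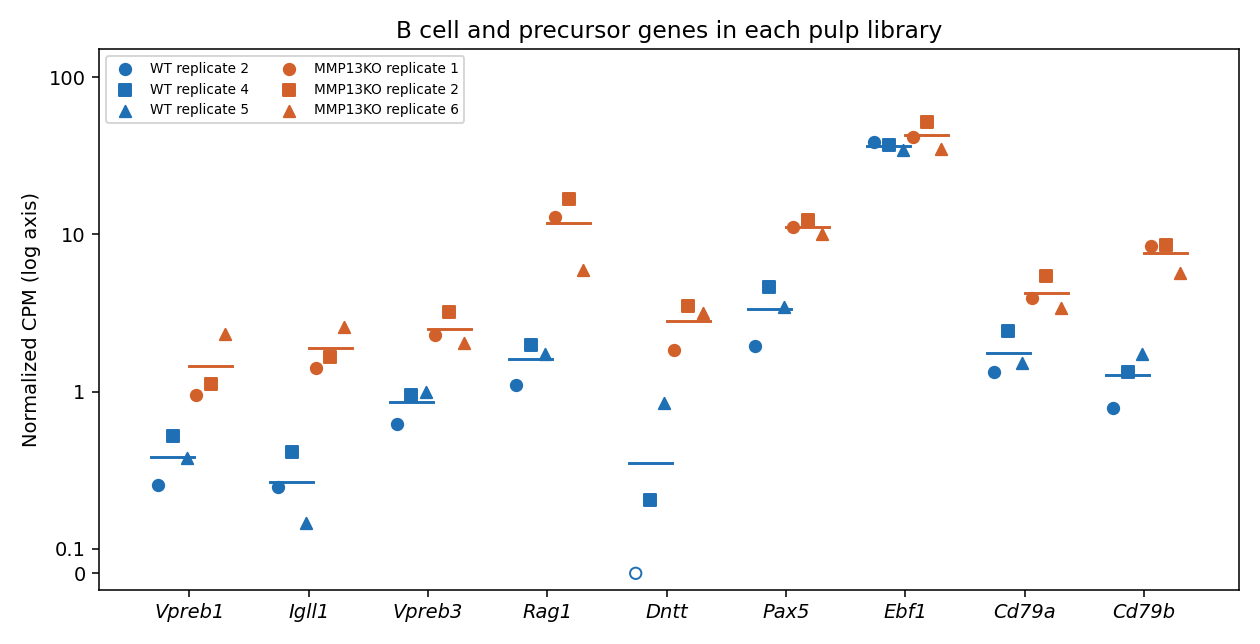
Normalized CPM (counts relative to the scaled library total, log axis) of each of the 9 genes in the 3 WT samples (blue) and the 3 *Mmp13*-/- samples (labelled MMP13KO, orange), with a horizontal line at each group mean and an open circle at the foot of the axis for a count of 0. The groups stand apart for 8 genes and overlap for *Ebf1*, which had the highest CPM of the 9 in both genotypes.

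The stretch upstream of a gene's start site is shown for 3 genes whose 250 bases hold letters known to bind lymphoid factors and overlap no annotated exon. Sequences are from RefSeq on GRCm38.p6, which holds 8 of the 9 genes, and run 5′ to 3′ on the strand of the gene up to the base before the start site. Capitals mark CAGCTG and CAGGTG (E-box motifs, bound by E2A proteins), TGGGAA (bound by Ikaros) and ATTTGCAT (the octamer, bound by OCT factors), each searched on both strands.
Igll1: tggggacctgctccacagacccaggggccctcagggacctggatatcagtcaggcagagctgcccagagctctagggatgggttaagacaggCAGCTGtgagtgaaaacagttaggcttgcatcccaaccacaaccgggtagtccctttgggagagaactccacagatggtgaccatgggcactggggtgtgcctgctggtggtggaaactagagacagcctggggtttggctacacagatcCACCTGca
Rag1: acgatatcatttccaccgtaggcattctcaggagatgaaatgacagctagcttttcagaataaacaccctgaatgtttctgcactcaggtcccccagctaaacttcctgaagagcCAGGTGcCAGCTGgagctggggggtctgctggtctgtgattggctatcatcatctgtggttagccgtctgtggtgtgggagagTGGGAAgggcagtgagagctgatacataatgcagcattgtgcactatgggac
Vpreb3: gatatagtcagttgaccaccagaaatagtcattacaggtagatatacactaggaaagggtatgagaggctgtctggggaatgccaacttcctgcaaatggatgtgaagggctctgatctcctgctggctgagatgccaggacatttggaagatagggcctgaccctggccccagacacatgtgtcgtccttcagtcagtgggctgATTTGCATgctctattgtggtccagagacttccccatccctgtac
*Igll1* (chr16:16863986-16864235, minus strand) holds CAGCTG at position −158 and CAGGTG, read on the other strand, at −8. *Rag1* (chr2:101649533-101649782, minus strand) holds CAGGTG at −135 and CAGCTG at −128, side by side without overlap, and TGGGAA at −52. *Vpreb3* (chr10:75948050-75948299, plus strand) holds the octamer at −45. This stretch lies before the RefSeq start site but inside the span of *Vpreb3* in the GENCODE M21 annotation (chr10:75943057-75949657), outside its exons. Such letters are common: of 32851 promoters of this length 13.0% hold CAGCTG, 17.2% CAGGTG, 21.6% TGGGAA and 1.60% the octamer. In all, CAGGTG lies in the upstream stretch of 4 of the 9 genes (*Igll1*, *Rag1*, *Vpreb1* and *Cd79a*), CAGCTG in 2 (*Igll1* and *Rag1*), TGGGAA in 2 (*Rag1* and *Ebf1*) and the octamer in 1. Neither the palindromic EBF1 site (in 0.779% of promoters) nor GAGGAAGT (a site for PU.1, in 2.44%) lies in any of them. These are matches of letters in this window and no measure of binding.

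The genes for the stand-in light chain rose in *Mmp13*-/- pulp. *Vpreb1* (chr16:16868403-16870843, minus strand, as are all gene positions from the GENCODE M21 annotation of GRCm38) encodes its variable-like part. WT samples 2, 4 and 5 held it at 0.254, 0.526 and 0.378 CPM, and *Mmp13*-/- samples 1, 2 and 6 at 0.959, 1.12 and 2.32 CPM. Every *Mmp13*-/- sample was above every WT sample, and sample 6 was the highest, at 2.24 times the mean of samples 1 and 2. The log2 fold change was 1.93 (SE 0.53, edgeR adjusted p = 0.0119), and without sample 6 it was 1.45 (edgeR adjusted p = 0.0213). *Vpreb2*, a copy on the same chromosome 1.11 Mb away, has a transcript 97.6% identical to that of *Vpreb1* over 540 aligned bases, so reads can be split between the copies and the value of *Vpreb1* is uncertain to that extent. Estimated counts of *Vpreb2* were 0 in each WT sample and 11.3, 2.21 and 0 in the *Mmp13*-/- samples, too few to be tested. Exons of *Vpreb1* also share 108 bases with *Top3b* on the opposite strand, and whether the counting used strand is not given in the sources used here. *Top3b* had 1247 to 1439 estimated counts in WT and 555 to 1161 in *Mmp13*-/-.

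*Igll1* (chr16:16860671-16863985, minus strand) encodes lambda 5, the constant-like part, and lies 4.417 kb from *Vpreb1*. It had 0.247, 0.412 and 0.146 CPM in WT, from 7.19, 12 and 4 estimated counts. In *Mmp13*-/- it had 1.42, 1.66 and 2.58 CPM, from 44.9, 49.9 and 44.7 estimated counts. The groups did not overlap, and sample 6 was again the highest in CPM although its count was no larger than the others, its scaled library being smaller. The log2 fold change was 2.79 (SE 0.50, edgeR adjusted p = 0.00133) and 2.51 without sample 6. *Vpreb3* (chr10:75943057-75949657, plus strand) encodes a relative of VpreB that binds immunoglobulin chains inside B lineage cells. Its CPM was 0.620, 0.950 and 0.998 in WT and 2.29, 3.19 and 2.03 in *Mmp13*-/-. Here sample 6 was the lowest of its group but still above each WT sample, and the log2 fold change of 1.55 (SE 0.34, edgeR adjusted p = 0.00388) was 1.68 without it.

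Both genes of the recombination machinery among the 9 also rose. *Rag1* (chr2:101638282-101649501, minus strand) encodes the DNA-cutting subunit of the recombinase. It stood at 1.10, 1.98 and 1.73 CPM in WT, against 12.9, 16.9 and 5.96 CPM in *Mmp13*-/-. The lowest *Mmp13*-/- value, in sample 6, was 0.401 times the mean of samples 1 and 2 and above all WT values. Its log2 fold change was 2.89 (SE 0.38, edgeR adjusted p = 0.000273), and 3.20 without sample 6. *Rag2*, which encodes the partner subunit and lies 5.752 kb away, had at most 2.57 estimated counts in a WT sample and 55.6, 36.7 and 30.6 in *Mmp13*-/-. These counts were 10.8, 6.10 and 1.86 times the background reads over its exons, which are described further on. With those reads included, and against a floor of 3 counts per WT library, its CPM was at least 15.1-fold higher in *Mmp13*-/- (edgeR adjusted p = 0.000218). Of the exons of *Rag1*, 80 bases are shared with *B230118H07Rik* on the same strand, which had 71.4 to 154 estimated counts in WT and 125 to 370 in *Mmp13*-/-.

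*Dntt* (chr19:41029275-41059525, plus strand) encodes terminal transferase, which acts on heavy-chain joints in early B cell precursors and in thymocytes. WT samples 2, 4 and 5 held 0, 6 and 23.2 estimated counts of it, and *Mmp13*-/- samples 1, 2 and 6 held 57.8, 105 and 54.7. As CPM these came to 0, 0.206 and 0.843 in WT, against 1.83, 3.50 and 3.16 in *Mmp13*-/-. The groups did not overlap, but the WT samples differed more among themselves than for any other of the 9 genes, with a coefficient of variation of 126%. The log2 fold change was 3.03 (SE 0.80, edgeR adjusted p = 0.00999). It was 4.64 without WT sample 5 and 2.36 without WT sample 2, so its size rests on which WT samples enter. With limma on the deposited log2 values it was 3.81, and the largest adjusted p with a sample left out was 0.0467 from edgeR.

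The transcription factors differed from each other. *Pax5* (chr4:44524757-44710487, minus strand), which holds cells in the B lineage and turns on *Cd79a*, stood at 1.96, 4.66 and 3.48 CPM in WT, against 11.1, 12.3 and 10.1 CPM in *Mmp13*-/-. The *Mmp13*-/- samples lay close together, with a coefficient of variation of 9.95%, and above all WT samples. Its log2 fold change was 1.72 (SE 0.28, edgeR adjusted p = 0.000791) and 1.79 without sample 6. Exons of *Pax5* share 125 bases with *Gm12462* and 636 bases with *5730488B01Rik*, both on the opposite strand, and reads there cannot be assigned without strand.

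*Ebf1* (chr11:44617317-45008091, plus strand), which acts before *Pax5* in opening the B cell programme, stood at 38.8, 36.8 and 34.3 CPM in WT, against 41.9, 51.6 and 34.7 CPM in *Mmp13*-/-. The groups overlapped, with sample 6 inside the WT range. Its log2 fold change of 0.22 did not pass (SE 0.16, edgeR adjusted p = 0.281). It had an adjusted p of 0.0458 without sample 6 and of 0.0205 with upper-quartile factors (both from edgeR), at log2 fold changes of 0.35 and 0.42, under 2-fold. After correction for GC content it was −0.068 (edgeR adjusted p = 0.666), so no direction is given for *Ebf1*. Per kilobase of exon *Ebf1* was the most abundant of the 9 genes in WT, at 3.76 CPM per kb against 0.124 to 1.21 for the other 8. Of 9 markers of stromal, mural and fat cells, 3 were called higher (*Lepr*, the leptin receptor of marrow stromal cells, at a log2 fold change of 2.18, *Rgs5* of mural cells at 1.49 and *Adipoq* of fat cells at 2.09) and 0 lower (1 lower without WT sample 4 or *Mmp13*-/- sample 2), with a median log2 fold change of 0.48. Their summed level was 529 to 587 CPM in WT and 585 to 828 CPM in *Mmp13*-/-, and its part in the level of *Ebf1* was not tested.

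The signalling pair of the receptor rose by unequal amounts. *Cd79a* (chr7:24897381-24902197, plus strand) had 1.33, 2.43 and 1.52 CPM in WT and 3.95, 5.44 and 3.41 CPM in *Mmp13*-/-. The groups did not overlap, and the gap between the highest WT and the lowest *Mmp13*-/- sample was the narrower of the pair. Its log2 fold change was 1.27 (SE 0.30, edgeR adjusted p = 0.00580) and 1.40 without sample 6. *Cd79b* (chr11:106311341-106314762, minus strand) had 0.792, 1.33 and 1.74 CPM in WT and 8.42, 8.60 and 5.71 CPM in *Mmp13*-/-. All *Mmp13*-/- samples were far above WT, at a log2 fold change of 2.56 (SE 0.30, edgeR adjusted p = 0.000182), or 2.72 without sample 6. The CPM of *Cd79b* was 0.547 to 1.15 times that of *Cd79a* in WT and 1.58 to 2.13 times in *Mmp13*-/-. These ratios did not overlap between the genotypes, and no test was made of them. Per kilobase of exon the pair stood at 1.21 and 0.899 CPM per kb in WT and at 2.93 and 5.30 CPM per kb in *Mmp13*-/-.

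**Figure D2:**
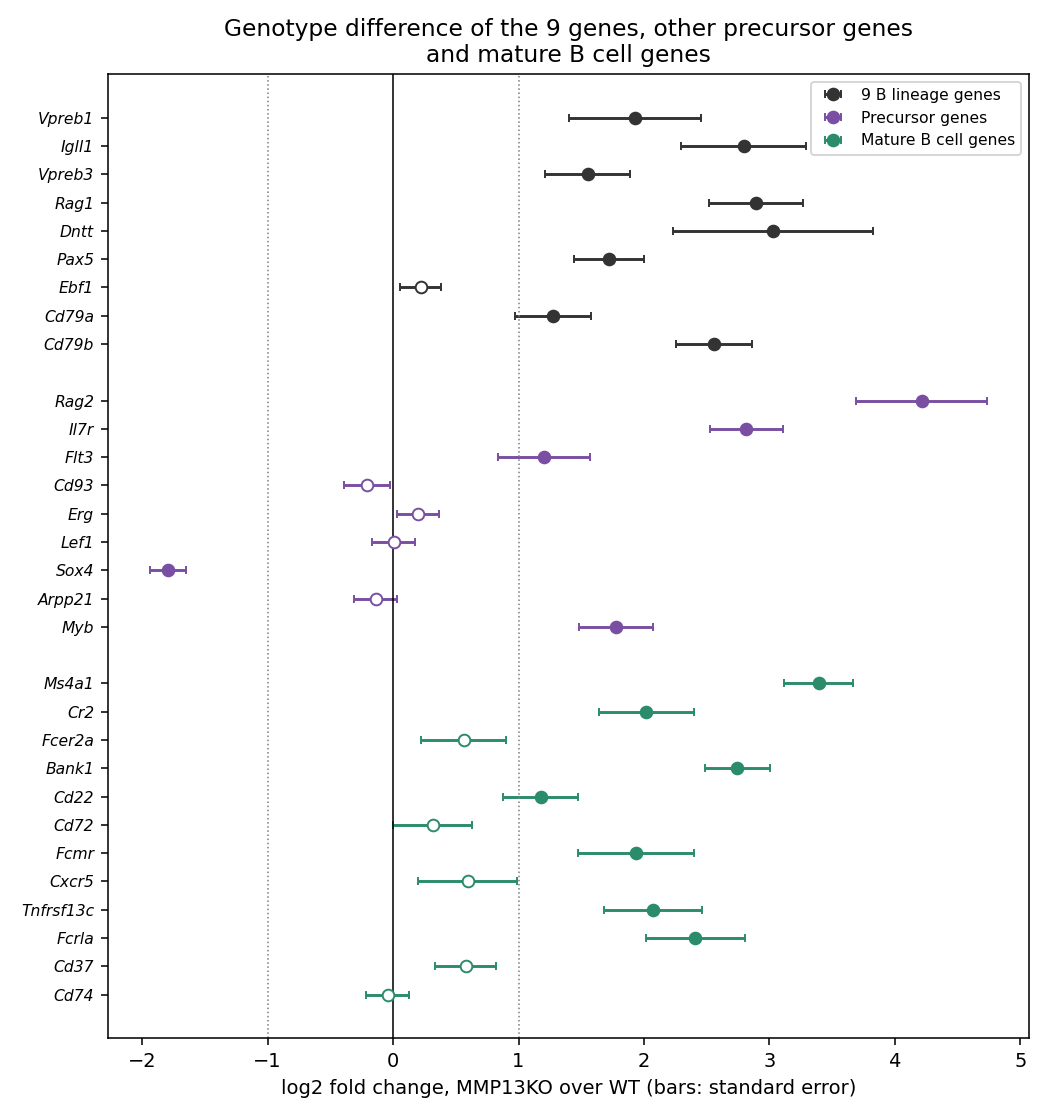
Log2 fold change (*Mmp13*-/- over WT) with its standard error from edgeR for the 9 genes (dark), other precursor genes (purple) and mature B cell genes (green), filled where called and open where not, with dotted lines at a 2-fold change. Among the 9 genes *Dntt* has the largest value, 3.03, and *Ebf1* the smallest, 0.22, while *Ms4a1* of the mature genes reaches 3.39 and *Sox4* of the precursor genes is at −1.80, and *Rag2* is drawn at a fitted value, all its WT counts being at or under the floor.

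Genes of precursors and of mature B cells were called higher in *Mmp13*-/- pulp. How the precursor genes stood against the mature genes was described by sums of CPM, without a test. The 5 precursor genes among the 9 summed to 2.22, 4.07 and 4.09 CPM in WT and to 19.4, 26.4 and 16.1 CPM in *Mmp13*-/-. *Pax5*, *Cd79a* and *Cd79b* together came to 4.09 to 8.41 CPM in WT and 19.2 to 26.3 CPM in *Mmp13*-/-. In neither sum did the genotypes overlap. Of 12 genes of mature B cells 7 were called higher and 0 lower, with a median log2 fold change of 1.56, and without sample 6 the number was 6. Their leaders by adjusted p were *Ms4a1* (CD20, a surface protein of B cells, log2 fold change 3.39), *Bank1* (an adaptor of receptor signalling, 2.74), *Fcrla* (an Fc receptor-like protein of B cells, 2.41) and *Cr2* (complement receptor CD21, 2.02). *Ms4a1* stood at 0.551, 0.379 and 0.476 CPM in WT, against 5.32, 5.05 and 4.43 CPM in *Mmp13*-/-, 2 groups that lie far apart. GC content was 41.2% for *Ms4a1*, 42.5% for *Bank1*, 50.1% for *Fcrla* and 42.1% for *Cr2*. Over all genes tested, log2 fold changes were larger at low GC content, as given further on, and its part in these values was not tested.

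Summed over the 12 genes, the mature level was 89.5 to 135 CPM in WT and 129 to 140 CPM in *Mmp13*-/-, which overlapped. Most of that sum was *Cd74*, the class II invariant chain, which macrophages and dendritic cells also make. Its mean was 92.2 CPM in WT and 89.4 CPM in *Mmp13*-/- (log2 fold change −0.045, edgeR adjusted p = 0.843). With *Cd74* left out, a choice made after its values were seen, the other 11 genes summed to 15.8, 21.3 and 28.1 CPM in WT and to 47.3, 48.6 and 44.2 CPM in *Mmp13*-/-. The 5 precursor genes then stood at 0.140 to 0.191 of the mature sum in WT and at 0.364 to 0.543 in *Mmp13*-/-. With *Rag1* left out of the precursor sum as well, also chosen after its values were seen, the ranges were 0.0709 to 0.0983 and 0.137 to 0.229. With *Cd74* kept in, they were 0.0248 to 0.0347 and 0.115 to 0.189. In each of these ratios the *Mmp13*-/- samples were above the WT samples. Background reads, described further on, are included in these sums and ratios and weigh most in sample 6. There *Cr2* was at 1.69, *Bank1* at 2.46 and *Ms4a1* at 2.58 times background. The pair *Vpreb1* and *Igll1* set against *Cd79b* gave another picture, with 0.301 to 0.705 in WT and 0.283 to 0.858 in *Mmp13*-/-, ranges that overlapped.

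Not every gene known from precursors moved with the 9. Of 10 further precursor genes 9 could be tested, and 4 were called higher and 1 lower, with a median log2 fold change of 0.20. The genes called higher were *Il7r*, the receptor for the main growth factor of pro-B cells (2.82), *Rag2* (with the bound given above), *Myb* (1.78) and *Flt3* (1.20). *Sox4*, a factor of pro-B cells that many other tissues use, was lower at −1.80. *Il7r* stood at 0.705, 1.29 and 0.691 CPM in WT, against 5.71, 6.81 and 6.53 CPM in *Mmp13*-/-, with no overlap. Without sample 6 the list had 3 called higher and 1 lower. Of 11 further transcription factors of the lineage, 4 were called higher (*Irf4* at a log2 fold change of 1.92, *Ikzf3* at 2.19, *Ikzf1* at 1.46 and *Pou2af1* at 2.10) and *Tcf3*, which encodes the E2A proteins, was lower at −1.09. Their median was 0.52. The number called higher was 8 with GC correction and 7 with background subtraction and GC correction. *Tcf3* was no longer called lower without sample 6, with upper-quartile factors, with library totals alone, with at least 10 counts in every sample, or after correction for GC content or background.

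Along the signalling pathway downstream of CD79A and CD79B, 4 of 11 genes were called higher and 0 lower, with a median log2 fold change of 0.71, and 8 were called higher with GC correction, alone or with background subtraction. Among those called were the kinases *Btk* (2.23) and *Blk* (1.44). *Btk* had 0.856, 1.39 and 1.56 CPM in WT and 6.21, 7.43 and 4.33 CPM in *Mmp13*-/-, without overlap. All 6 constant-region genes of the immunoglobulin chains were called higher, with a median log2 fold change of 2.39, and 2 when at least 10 counts were needed in every sample. *Ighm*, the heavy chain of IgM, stood at 35.7, 33.1 and 38.7 CPM in WT, against 106, 102 and 59.2 CPM in *Mmp13*-/-. The other 3 with the smallest adjusted p were *Iglc2* (log2 fold change 3.83), *Igkc* (1.85) and *Iglc1* (2.92), and the lambda genes are near copies between which reads can be split. Of 7 plasma cell genes 6 were tested. *Jchain*, which links secreted IgM, was higher at 2.73 and *Mzb1*, a chaperone of antibody-secreting cells, at 1.28, and *Sdc1*, a proteoglycan that epithelia also make, was lower at −1.11. Their median was −0.35. *Sdc1* was not called with upper-quartile factors, with at least 10 counts in every sample or after correction for GC content or background, and 1 plasma cell gene was called higher without a filter or with any sample but *Mmp13*-/- sample 6 left out.

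Markers of other blood cell types moved with the 9 genes. Of 13 markers of T cells and thymocytes 11 were tested and 7 were called higher, with a median log2 fold change of 1.77. Their summed level, with background reads included, was 10.7 to 12.9 CPM in WT and 23.1 to 27.7 CPM in *Mmp13*-/-. *Cd3e*, a chain of the T cell receptor complex, rose by a log2 fold change of 4.66, *Cd3d*, another such chain, was at least 8.80-fold higher with background reads included, and the kinase *Lck* was at 1.47, while *Trac*, the constant region of the receptor's alpha chain, was at −0.15 (edgeR adjusted p = 0.831). *Ptcra*, the chain that marks thymocytes at the matching step of their own development, had 0 to 0.0686 CPM in WT and 0.194, 0.279 and 0 CPM in *Mmp13*-/-, and was too low to be tested. *Themis* of thymocytes was also called, but its estimated counts in *Mmp13*-/- samples 1, 2 and 6 were 17.8, 15.0 and 52.3, against 17.6, 20.5 and 56.1 that background reads would give over its exons. It thus did not stand above background in any sample, and no fold is given for it. *Cd3d* was 6.54, 4.04 and 3.54 times background in the same samples, with its highest CPM in sample 6 (0.565, 0.429 and 1.78 CPM), on which its bound largely rests. The number of T cell markers called was 3 without WT sample 2, 4 without WT sample 4, WT sample 5 or *Mmp13*-/- sample 6, 3 after subtraction of background reads and 1 with at least 10 counts in every sample.

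Of 9 genes of neutrophils and their precursors 8 were called higher, led by *S100a9* (log2 fold change 5.19), *S100a8* (4.90), *Camp* (2.92) and *Ctsg* (3.31). *S100a8* and *S100a9* are also abundant in mature neutrophils, so the list does not mark precursors alone. Of its other granule genes, *Mpo* was at 1.23 and *Elane* at 1.53, and *Prtn3* was not called (0.80, edgeR adjusted p = 0.0977). The median of the 9 was 1.77 and the sum was 139 to 292 CPM in WT and 703 to 1744 CPM in *Mmp13*-/-. For red cell markers 5 of 9 were called higher, and 9 of 9 with GC correction, alone or with background subtraction, among them *Rhag* (3.16), *Hbb-bs* (3.28) and *Hbb-bt* (2.76), with a median of 1.80 and sums of 867 to 1390 and 2046 to 3825 CPM. Of 6 megakaryocyte markers 4 were called higher, among them *Ppbp* (2.61), *Pf4* (1.06) and *Gp9* (1.65), with a median of 1.35 and sums of 32.0 to 52.5 and 76.0 to 104 CPM. In each of these lists 0 genes were called lower, the sums did not overlap between genotypes, and no marker was at 0 in all WT samples. The part of these cells in the levels of the 9 genes was not tested. Pulp markers were detected in all 6 samples, with summed levels of 54440 to 61105 CPM in WT and 16456 to 21911 CPM in *Mmp13*-/-. These sums were carried by the type I collagen genes *Col1a1* and *Col1a2* and do not describe the list as a whole. Mean *Col1a1* was 39701.6 CPM in WT and 8864.84 CPM in *Mmp13*-/-, and mean *Col1a2* was 16747.5 and 7006.8 CPM. Of the 7 pulp markers, 3 were called higher and 3 lower, with a median log2 fold change of −0.22. Among them were *Mepe* (2.35) and *Phex* (1.68), a matrix protein and a peptidase of mineralizing cells, *Col1a1* (−2.16) and nestin, *Nes* (−1.21). The odontoblast gene *Dspp* was also called higher (1.13, edgeR adjusted p = 0.0370), although its groups overlapped. Its means were 962 CPM in WT and 2105 CPM in *Mmp13*-/-.

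**Figure D3:**
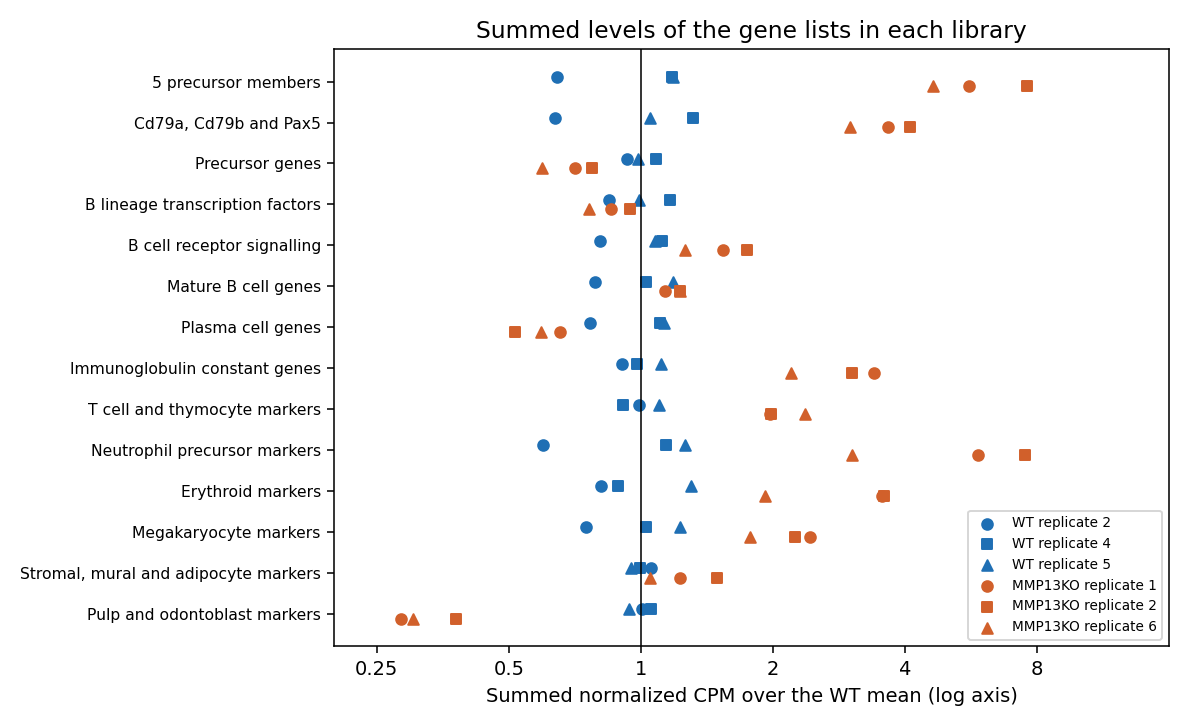
Summed normalized CPM of each gene list in each sample, divided by the mean of the 3 WT samples (log axis), for WT (blue) and *Mmp13*-/- (labelled MMP13KO, orange). The sums include background reads. To the right of WT in all *Mmp13*-/- samples lie the 5 precursor genes among the 9 and the trio *Cd79a*, *Cd79b* and *Pax5*. So do the constant-region genes, the signalling genes and the lists of T cells, neutrophils and their precursors, red cells and megakaryocytes. The full mature list, carried by *Cd74*, overlaps WT. The further precursor genes, plasma cell genes and pulp markers lie to the left. Their sums are carried by *Sox4* and *Cd93*, by *Sdc1*, and by *Col1a1* and *Col1a2*, while other genes of each list were called higher.

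Counts of the 9 genes were set against background reads, since receptor genes with no known use in pulp were raised in the *Mmp13*-/- libraries. The rate of those genes per kilobase of exon gives a background count for the exons of each gene. In WT the counts of the 9 genes were 19.5 to 1116 times background, apart from *Dntt* at 0 in sample 2. In *Mmp13*-/- samples 1 and 2 they were 13.1 to 124 times background. In sample 6 they were 3.25 times background for *Rag1*, 4.10 for *Pax5*, 4.30 for *Igll1*, 4.98 for *Dntt* and 6.99 for *Vpreb1*, and 8.45 to 14.4 times for the other 4 genes. The long exons of *Rag1* (6.608 kb) would draw 31.7 background counts in sample 6, where 103 were found. After subtraction of the background all 8 calls were made again, with log2 fold changes of 1.36 for *Cd79a* to 3.04 for *Dntt*. Several genes of the other lists lay nearer to background in sample 6, with *Ms4a1* at 2.58 times, *Bank1* at 2.46, *Cr2* at 1.69, *Flt3* at 2.46, *Cd3e* at 2.44 and *Lck* at 2.68.

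**Figure D4:**
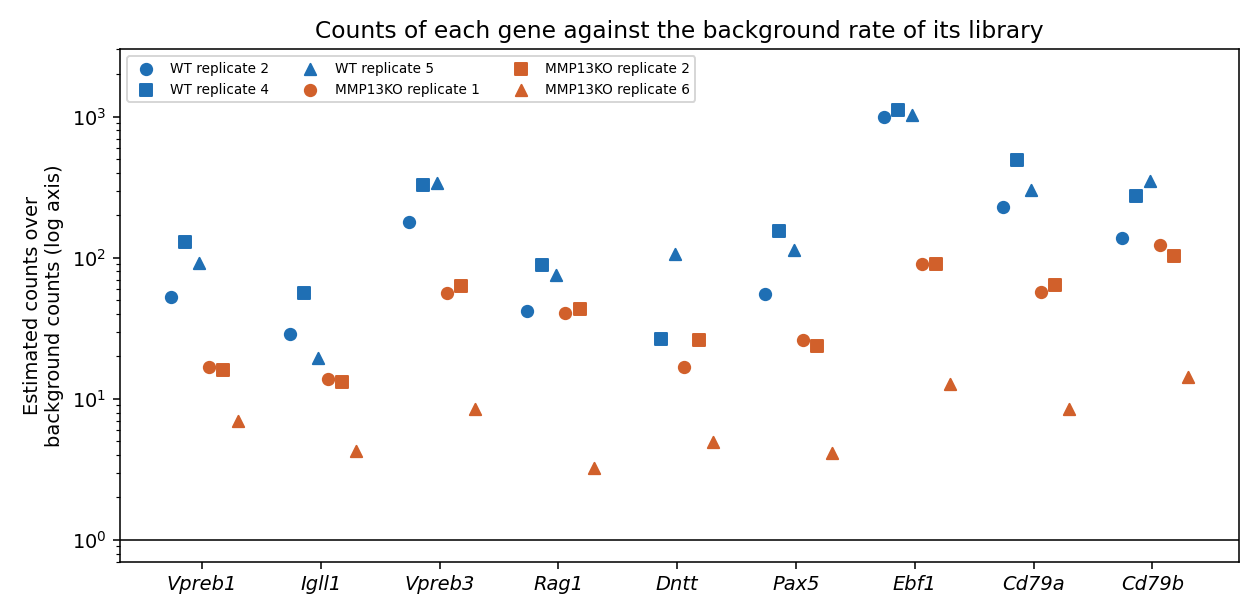
Estimated counts of each gene divided by the counts that background reads would give over its exons (log axis, line at 1), per sample, in WT (blue) and *Mmp13*-/- (labelled MMP13KO, orange), with *Dntt* in WT sample 2 not drawn because its count was 0. *Mmp13*-/- sample 6 is lowest for each gene, between 3.25 times background for *Rag1* and 14.4 times for *Cd79b*.

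The 9 genes also varied among themselves within the *Mmp13*-/- group. Sample 6 had more *Vpreb1* (2.24 times), *Igll1* (1.67 times) and *Dntt* (1.19 times) than the mean of samples 1 and 2, and less *Rag1* (0.401 times), *Cd79b* (0.672 times), *Cd79a* (0.727 times), *Vpreb3* (0.741 times), *Ebf1* (0.743 times) and *Pax5* (0.862 times). These ratios include background reads. In sample 6 such reads would give 11.0 of 54.7 counts for *Dntt*, 10.4 of 44.7 for *Igll1* and 5.75 of 40.2 for *Vpreb1*. For *Dntt* in samples 1 and 2 they would give 3.45 of 57.8 and 4.02 of 105. Precursor genes thus stood at both ends of this order. The coefficient of variation in *Mmp13*-/- ran from 9.95% for *Pax5* to 50.9% for *Vpreb1*, and in WT from 6.12% for *Ebf1* to 126% for *Dntt*.

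The size of the difference also depended on GC content for part of the genes. Over all genes tested, the Spearman correlation between log2 fold change and GC content was −0.527. When each sample was corrected for the GC content of its transcripts, the log2 fold changes of the genes richest in GC became larger, 2.81 for *Vpreb1* (56.8% GC), 2.46 for *Pax5* (55.4%), 1.96 for *Cd79a* (54.9%) and 3.14 for *Cd79b* (53.8%). That of *Rag1*, the poorest in GC at 44.1%, fell from 2.89 to 2.43. All 8 calls were made with this correction too.

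**Figure D5:**
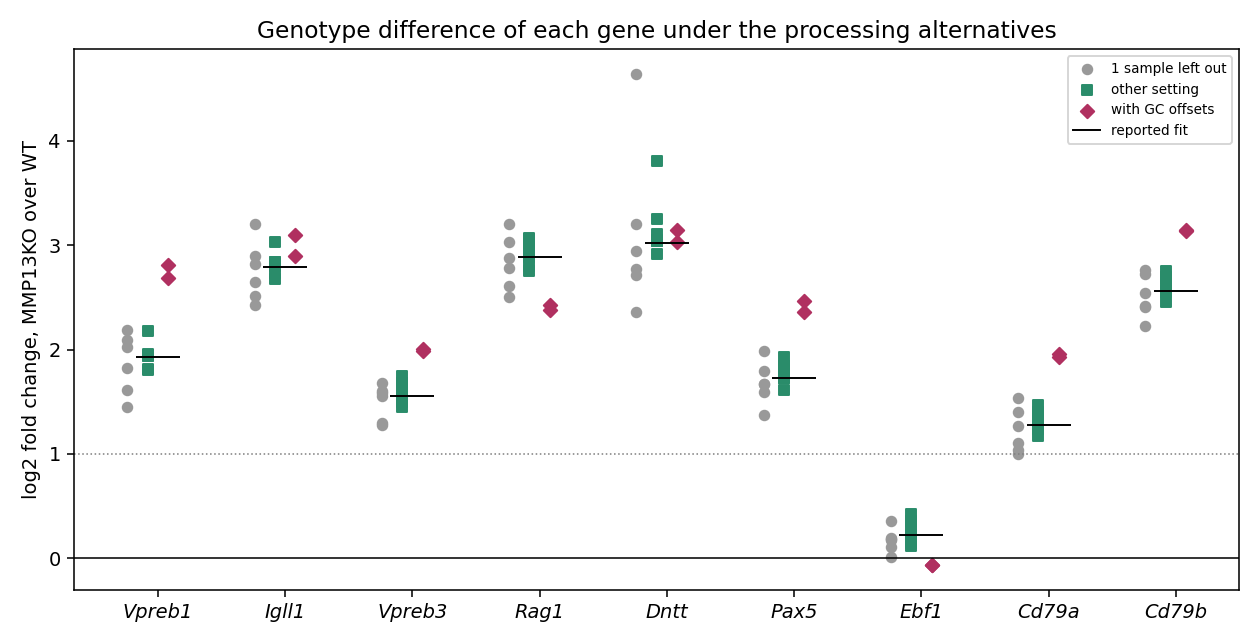
Log2 fold change (*Mmp13*-/- over WT) of each gene under the processing alternatives, with grey circles for fits that leave out 1 sample, green squares for other settings, diamonds for fits with GC correction and a black line for the reported fit. The dotted line marks a 2-fold change, above which 8 genes stay in each fit that could test them, and *Ebf1* lies near 0 throughout.

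The profile of the 5 precursor genes over the 6 samples was compared with 19097 genes of at least 1 mean CPM, by the root-mean-square difference of log2 values centred on each gene's mean. The nearest were *Trim30a* (0.0505), *Nlrc4* (0.0896), *Aim2* (0.0933), *Traf3ip3* (0.0989) and the antisense gene *Gm17017* (0.107). The 5 genes themselves lay farther from their own mean profile, from 0.286 for *Igll1* to 0.583 for *Rag1*. A mean of 5 genes is smoother than each of them, and the nearest were picked as the closest of 19097. Their closeness is therefore a description and no sign of a shared cell type. *Trim30a* had a mean of 2.57 CPM in WT and 9.35 CPM in *Mmp13*-/-.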

How the data were processed

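RNA of dental pulp from 3 WT and 3 *Mmp13*-/- mice was sequenced on an Illumina instrument with paired ends, and the genotype in the labels defined the groups. The deposited table holds estimated counts per gene, which the authors obtained from aligned reads in Strand NGS without normalization and which carry fractions. To make the deposited log2 values, the authors scaled those counts with DESeq size factors, set a threshold of 1 and centred each gene on its median. The submitters' processing notes name mm10. Aligner settings, annotation release and strand use are not given in the sources used here.

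Estimated counts were rounded, and edgeR 4.0.16 was run in R 4.3.3 (quasi-likelihood test, TMM factors, low-count filter by genotype, no covariates, Benjamini-Hochberg adjustment over 24534 genes). Normalized CPM are counts relative to the TMM-scaled library total, and SD and coefficients of variation are over 3 samples. P-values weigh the genotype difference against the spread between these samples. Between samples of the same genotype, counts differed by far more than sampling noise. Positions, exon lengths and GC content came from GENCODE M21 (99.8% of genes matched). Repeat genes match *Gm10800* over more than 50% of their length. The nearest-profile search used log2(CPM + 0.5). The 9 genes and all gene lists were chosen with earlier results of these data known. Named genes are the 9, *Mmp13*, from each other list up to 4 called genes with the smallest adjusted p, near copies, and the 5 nearest profiles. Where 5 or fewer genes of a list were called the rest were added after their values were seen. Added in the same way were *Cd74*, *Cd72*, *Cd37*, *Cd93*, *Col1a2*, *Trac*, *Mpo*, *Elane*, *Prtn3*, *Dspp* and overlapping genes. The fits were tested on simulated data. Alternatives were RLE and upper-quartile factors, library totals alone, factors without repeat and the 10 most abundant genes, DESeq2 1.42.0, a minimum of 10 counts in every sample, absence of a filter, limma 3.58.1 on the log2 values, GC offsets (loess, span 0.4, genes above a mean log2 CPM of 3), background subtraction, both together, each sample left out, and calls at any fold. No set test was run. Some genes of the lists are counted but not reported here by name.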

Additional observations from a re-analysis of the deposited data

How the results depend on the processing

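The 8 calls were made in every alternative in which the gene was tested, and leaving out any of the samples gave 8 genes called higher and 0 lower. With at least 10 counts in every sample 5 were called, because *Vpreb1*, *Igll1* and *Dntt* were then not tested, and 6 of the 9 remained. *Ebf1* turned to −0.068 with GC offsets and to −0.068 with background subtraction and GC offsets. The number of genes called, 7381, was 4666 with at least 10 counts in every sample, 14325 without a filter, 4620 with GC offsets, 3444 with background subtraction and GC offsets, 12665 at any fold, and 7146 to 8751 with a sample left out. Calls summed over the other lists, 63, were 53 to 60 with a sample left out.

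With a sample left out, log2 fold changes ran from 1.003 to 1.53 for *Cd79a*, 2.23 to 2.76 for *Cd79b*, 1.45 to 2.19 for *Vpreb1*, 1.28 to 1.68 for *Vpreb3*, 2.43 to 3.21 for *Igll1*, 2.50 to 3.20 for *Rag1*, 2.36 to 4.64 for *Dntt*, 1.37 to 1.99 for *Pax5* and 0.0078 to 0.35 for *Ebf1*. Upper-quartile factors and library totals alone shifted the median of all genes by 0.21 and 0.11, and the share of called genes that were higher, 67.8%, was 81.4% and 76.9% with them and 83.1% with GC offsets. For single lists, 40 counts under the alternatives differed from the reported count by over 1.5 times and 368 did not. The cause of these shifts was not tested.

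No paired analysis was possible because the genotypes share the number 2 alone. A floor over the group in place of a floor per library was not run, since it applies to none of the 9 genes. Depth limits *Dntt* and *Igll1* most, with 4 to 12 counts for *Igll1* in WT.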
